A study of Mus musculus with 6 samples.

Results

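The genes described here are those of DNA replication and S phase, chosen by symbol from a fixed list of 59 that covers origin recognition, licensing, the MCM helicase, origin firing, the DNA polymerases, the sliding clamp and its loader, nucleotide supply, chromatin assembly and the E2F and cyclin E genes. Of these, 57 were rows of the count table, which lists 10616 genes, and counts of Orc3 and Claspn were not analysed here. RNA was measured in cultured KPC cells, a line from a mouse pancreatic ductal adenocarcinoma. The comparison was between cells with a short hairpin RNA against Brca2 (KPC-shBrca2, 3 libraries) and cells with a non-targeting hairpin (KPC-shControl, 3 libraries). Both groups derive from this same line, both were infected with a lentivirus of the pLKO.1 backbone and selected with puromycin, and 10000 viable cells were sorted for a library. The labels and methods leave unclear if replicate libraries are independent cultures, so the p-values below measure only the spread between these samples, which may be technical.

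DNA replication begins at origins, where the origin recognition complex, Cdc6 and Cdt1 load the MCM helicase in G1 phase. Kinases and firing factors then switch the helicase on in S phase, and DNA polymerases copy the opened strands with the help of a sliding clamp, a clamp loader and a protein that coats single-stranded DNA. E2F factors bind the promoters of many of these genes and raise their transcription as cells leave G1. Brca2 acts at the same forks, where it shields stalled nascent DNA, and it is also needed for homologous recombination.

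The promoters of these genes were searched for motifs, which the list that chose them did not use. A RefSeq promoter on GRCm38.p6, from 250 bases before to 50 bases after the start site, was matched by symbol for 48 of the 59 genes. For Gins1, Gins2, Gins4, Prim2, Claspn, Pole, Gmnn, Ccne2, Mcm4, Tipin and Rfc2 there was no entry. An E2F motif, searched as TTTCCCGC, TTTGGCGC, TTTGCCGC or TTTCGCGC on either strand, was found in the promoters of 18 of these 48 genes (37.5%). The same motif was in 704 of 27025 genes with a promoter (2.6%) and in 423 of 8544 genes of the count table with a promoter (4.95%). A wider list of replication genes, described further on, had it in 15 of 58 promoters (25.9%). The motif words can overlap each other on opposite strands. The windows printed below belong to loading factors with motifs before the start site (Orc1, Cdc6, Mcm5 and Mcm6) or to genes whose counts are described further on (Pold1, Uhrf1 and E2f3). Each runs 5′ to 3′ on the strand of its gene, with the E2F motif in capitals.
Orc1, chr4:108579411-108579450, plus strand: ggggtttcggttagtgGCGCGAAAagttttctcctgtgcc
Cdc6, chr11:98907997-98908036, plus strand: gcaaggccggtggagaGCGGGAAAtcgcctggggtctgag
Mcm5, chr8:75109340-75109383, plus strand: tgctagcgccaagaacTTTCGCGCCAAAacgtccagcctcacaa
Mcm6, chr1:128359729-128359831, minus strand: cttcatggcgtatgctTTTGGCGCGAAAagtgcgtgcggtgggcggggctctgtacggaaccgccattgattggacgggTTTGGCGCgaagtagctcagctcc
Pold1, chr7:44548766-44548784, minus strand: atcttgtgGCGGGAAAagc
Uhrf1, chr17:56304112-56304151, plus strand: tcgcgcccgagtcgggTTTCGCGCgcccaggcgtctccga
E2f3, chr13:29986064-29986090, minus strand: atggtttgaaaagccgGCGGGAAAtct
In Mcm5 and in the upstream block of Mcm6 a pair of motifs on opposite strands overlap, so the capitals run together. In Pold1 the match begins 40 bases after the start site of its promoter entry, whereas the others shown lie upstream of theirs. The windows of Orc1, Cdc6 and Uhrf1 lie inside the spans of these genes, which begin at 108575705, 98907709 and 56303337. Their start sites are thus internal ones, and 9 of the 48 genes had more than 1 promoter entry. The CCAAT box, searched as CCAAT on either strand, was in 27 of the 48 promoters (56.2%) and in 41.1% of all genes with a promoter. Among genes with an adjusted p, the 17 with an E2F motif had a median log2 fold change of -0.19 and the 30 without had -0.11, given as a description only.

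The libraries held from 1519340 to 2452467 counts. Brca2 itself (chr5:150522297-150570147 on GRCm38) had normalized counts of 13.6, 10.4 and 12.2 in KPC-shBrca2 and 33.3, 43.6 and 32.6 in KPC-shControl, a log2 fold change of -1.61 ± 0.44 (SE, DESeq2 likelihood ratio test, adjusted p = 0.029), so the libraries followed their labels. That call was lost without shBrca2 replicate 2 (adjusted p = 0.152), shBrca2 replicate 3 (0.233) or shControl replicate 2 (0.371), by the same test. Brca2 was counted little, with raw counts of 10, 11 and 14 in KPC-shBrca2 and 33, 52 and 33 in KPC-shControl. It also overlaps exons of N4bp2l1 and of noncoding genes on the opposite strand. The keratins Krt7, Krt8, Krt18 and Krt19 of ductal epithelium were counted in every library, and 6 of 7 ductal markers were in the table, with summed normalized counts of 16509 to 17304 in KPC-shBrca2 and 17430 to 18540 in KPC-shControl. These markers did not move together: Krt7 had 282 to 383 normalized counts in KPC-shBrca2 and 121 to 161 in KPC-shControl (log2 fold change 1.21 ± 0.20, SE), against the direction of the sum. Cdh1 had a log2 fold change of 0.32 ± 0.19, and Epcam had at most 9.09 normalized counts. Of the markers of other cells, 1 of 8 fibroblast genes (Col1a2, summed 10.9 to 17.02 against 7.91 to 22.2), 1 of 6 leukocyte genes (Cd68, 12.2 to 20.4 against 11.1 to 16.8) and 0 of 3 endothelial genes were in the table. The first principal component, with 40.9% of the variance, followed the groups only in part. Its values were -0.42, 0.02 and -0.43 in KPC-shBrca2 and -0.18, 0.26 and 0.74 in KPC-shControl. The groups overlapped, with shBrca2 replicate 2 above shControl replicate 1.

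To learn how the replication genes differ between KPC-shBrca2 and KPC-shControl cells, each was compared in a fit over all genes. No replication gene was called. The call rule was an adjusted p under 0.1 over all genes, a log2 fold change beyond 0.5 either way and a base mean (the mean normalized count of the 6 libraries) over 5. By this DESeq2 likelihood ratio test 0 of 56 genes with an adjusted p passed, against 127 of 9997 genes overall (1.27%), and the lowest adjusted p among them was 0.322 for Pold1. Ccne2, with a base mean of 3.71, received no adjusted p. At an unadjusted p under 0.05 there were 4 genes lower and 0 higher in KPC-shBrca2, where 4.11% and 4.55% of all genes were lower and higher. The edgeR quasi-likelihood test also called 0, of 55 genes tested, beside 121 of 9091 genes overall. It had 7 lower and 1 higher at an unadjusted p under 0.05, where 7.13% and 7.31% of all genes were lower and higher. The fold changes of these genes were small, from -0.72 for Tyms to 0.58 for E2f3 on the log2 scale, and the 95% interval lay inside a log2 change of 1 in either direction for 49 of 56.

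The fold changes leaned towards lower counts in KPC-shBrca2. Of the 56 genes, 38 were lower (67.9%), with a median log2 fold change of -0.13, beside 50.2% and -0.0009 over all genes tested. Among genes with a base mean of at least 100, 28 of 38 replication genes were lower with a median of -0.14, and 53.9% of 3773 genes were lower with a median of -0.022. The counts of the groups did not overlap for 11 genes lower in KPC-shBrca2 (19.6%) and for 3 genes higher (5.36%), and the same held for 10.4% and 10.2% of all genes. The summed normalized counts of the 57 genes were 10261, 10495 and 10422 in KPC-shBrca2 and 11183, 11310 and 11076 in KPC-shControl. The sum was thus lower in every KPC-shBrca2 library, with a mean of 10392 ± 119.6 against 11190 ± 117.2 (SD, n = 3), a change of -7.13%. As a share of all counts, these genes took from 0.496% to 0.508% in KPC-shBrca2 and from 0.528% to 0.550% in KPC-shControl. In a population of cells, fewer cells in S phase and less of these RNAs per cell cannot be told apart.

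**Figure D1:**
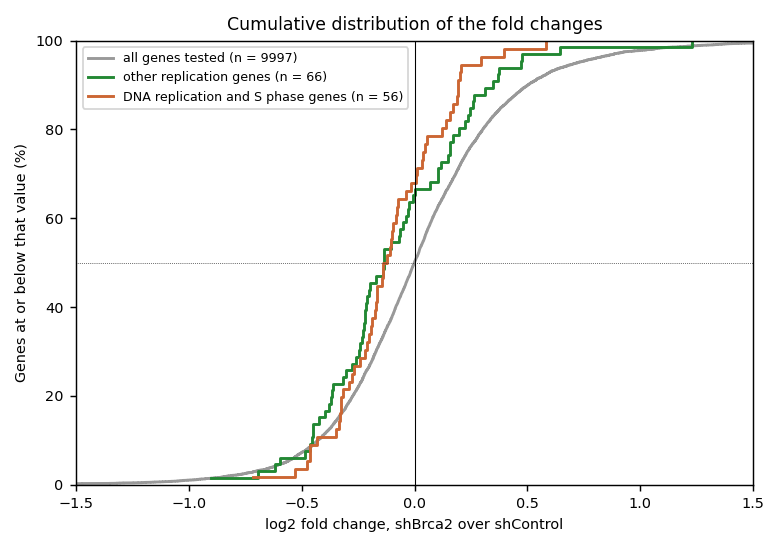
Cumulative percentage of genes (vertical axis) at or below each log2 fold change of shBrca2 over shControl (horizontal axis) for the 56 DNA replication and S phase genes, 66 other replication genes and all 9997 genes tested. The curves of both replication lists cross 50% near -0.13 and that of all genes near 0.

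GC content moved with the fold changes. Across genes, which are not independent replicates, Pearson's r between the GC content of the longest annotated transcript and the log2 fold change was -0.31 over the 56 replication genes and -0.32 over 9752 genes tested. The median GC content was 49.1% for the replication genes and 49.7% for all of these genes. The libraries were made from 3′ ends, so the GC content of a whole transcript may differ from that of the sequence read. With the GC trend removed, a setting chosen after seeing the data, the median of the replication genes was -0.18 and that of all genes -0.022, and 43 of 56 were lower.

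By role, the lean was uneven. For 5 of 11 roles the summed normalized counts were lower in every KPC-shBrca2 library than in any KPC-shControl library, namely the MCM helicase (-11.2%), origin firing (-7.76%), polymerases and primase (-9.79%), single-strand binding and Okazaki fragment maturation (-8.78%) and chromatin assembly and maintenance (-21.2%). They overlapped for the other roles, with changes of 2.92% for the origin recognition complex, -6.55% for licensing, 1.76% for the clamp and its loader, -5.04% for nucleotide supply, 6.79% for the E2F and cyclin E genes and 4.19% for fork protection. For single-strand binding the groups nearly touched, with 1106 in shBrca2 replicate 3 and 1107.4 in shControl replicate 1. For origin firing the nearest sums were 1051.2 in shBrca2 replicate 3 and 1064.9 in shControl replicate 3. A sum is weighted towards the genes with most counts, and no test was run on these sums. Of single genes, 10.4% of all tested were lower in KPC-shBrca2 without overlap. Sums over other gene sets of like size were not made, so the 5 of 11 roles have no background share to be read against.

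**Figure D2:**
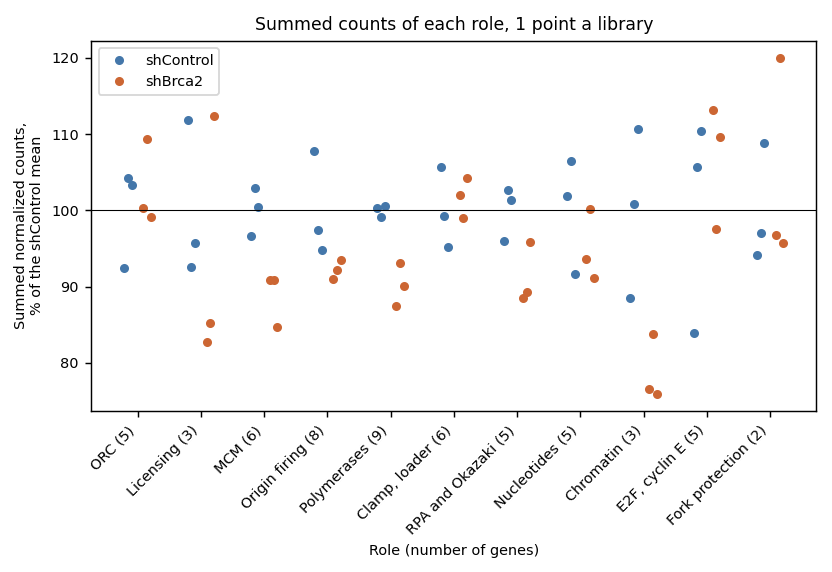
Summed normalized counts of each role as a percentage of the shControl mean, 1 point a library, with the number of genes of the role in brackets. The chromatin genes in shBrca2 lie farthest below 100%, and the clamp and loader genes of the groups overlap.

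The origin recognition complex marks origins and recruits the loaders. Of its 5 subunits measured, 3 were lower and 2 higher in KPC-shBrca2, and none passed a test. Orc6, the smallest subunit, had 256, 273 and 257 normalized counts in KPC-shBrca2 and 227, 239 and 232 in KPC-shControl. It was therefore higher in every KPC-shBrca2 library, by a log2 fold change of only 0.17 ± 0.17 (SE, DESeq2 adjusted p = 0.891). Orc1, the ATPase subunit that comes and goes with the cell cycle, had 23.2, 30.3 and 32.2 against 27.3, 42.8 and 33.6 (-0.27 ± 0.38), and the groups overlapped. Its log2 fold change was -0.08 without shControl replicate 2, -0.15 without shBrca2 replicate 1 and -0.41 without shControl replicate 1. Orc2, Orc4 and Orc5 had log2 fold changes of -0.17, 0.19 and -0.10.

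Among the licensing factors, Cdt1 and its inhibitor geminin (Gmnn) had fold changes of opposite sign, neither past the test. Cdt1 (chr8:122568015-122573130) had 283, 296 and 403 normalized counts in KPC-shBrca2 and 477, 380 and 378 in KPC-shControl, a log2 fold change of -0.33 ± 0.19 (SE). The overlap came from shBrca2 replicate 3, which stood above shControl replicates 2 and 3. The log2 fold change was -0.50 without that library, -0.21 without shControl replicate 1 and -0.16 with the GC trend removed. Gmnn had 293, 305 and 386 against 310, 268 and 290, a log2 fold change of 0.19 ± 0.18, and the highest value was again that of shBrca2 replicate 3, without which it was 0.05. The DESeq2 adjusted p-values were high (adjusted p = 0.678 for Cdt1 and 0.884 for Gmnn). Cdc6, which loads the helicase with Cdt1, had a base mean of only 10.02 and a log2 fold change of -0.19 with a 95% interval up to 1.08.

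The 6 subunits of the MCM2-7 helicase, the ring that unwinds DNA ahead of the fork, were lower in KPC-shBrca2 for all but Mcm4, and 0 passed. The log2 fold changes of Mcm2, Mcm3, Mcm4, Mcm5, Mcm6 and Mcm7 were -0.33, -0.20, 0.03, -0.14, -0.08 and -0.28. The counts of the groups overlapped for each of the 6 genes. Mcm7 (chr5:138164583-138172111) had 627, 537 and 490 normalized counts in KPC-shBrca2 and 554, 737 and 711 in KPC-shControl (-0.28 ± 0.17, DESeq2 adjusted p = 0.707). Its shBrca2 replicate 1 exceeded shControl replicate 1. Mcm2 had 305, 378 and 202 against 303, 389 and 419, and shBrca2 replicate 3 alone lay far below the rest. Without that library its log2 fold change was -0.11 in place of -0.33, and without shBrca2 replicate 2, the highest of its group, it was -0.56.

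Origin firing turns the loaded ring into a moving helicase through the kinase pair Cdc7 and Dbf4, Mcm10, Cdc45 and the 4 GINS subunits. Of these 8 genes 7 were lower, with log2 fold changes from -0.24 to 0.005, and 0 passed. Mcm10, which activates the helicase, had 106, 105 and 110 normalized counts in KPC-shBrca2 and 117, 118 and 144 in KPC-shControl. It was lower in each KPC-shBrca2 library, by -0.24 ± 0.22 (SE, DESeq2 adjusted p = 0.876), and by -0.14 without shControl replicate 3. Cdc45, a core part of the active helicase, had 98.1, 115 and 108 against 129, 114 and 119 (-0.17 ± 0.22), and the groups overlapped by shBrca2 replicate 2. Gins2 had 297, 312 and 299 against 399, 271 and 320 (-0.12 ± 0.18), with the spread on the KPC-shControl side.

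With all 6 libraries and no removal of the GC trend, the polymerases held the lowest p-values of the replication genes. Polymerase alpha and primase had log2 fold changes between -0.09 and 0.16, whereas the catalytic subunits of polymerases delta and epsilon, which extend the lagging and leading strands, were lower in every KPC-shBrca2 library. Pold1 (chr7:44532744-44548815), the delta catalytic subunit, had 178, 171 and 169 normalized counts in KPC-shBrca2 and 221, 246 and 247 in KPC-shControl. Every KPC-shBrca2 value was well below the lowest of KPC-shControl. The log2 fold change was -0.46 ± 0.18 (SE, DESeq2 unadjusted p = 0.0109, adjusted p = 0.322). Its promoter holds the motif printed above. With the GC trend removed its log2 fold change was -0.26 (DESeq2 unadjusted p = 0.152), the only setting in which the value moved by more than 1.5 times. In that setting Rrm1 (unadjusted p = 0.0135) and Pole (0.0180) had lower p-values than Pold1, by the same test.

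Pole (chr5:110286319-110337468), the epsilon catalytic subunit, had 76.3, 88.9 and 85.3 normalized counts in KPC-shBrca2 and 119, 122 and 122 in KPC-shControl. The 3 KPC-shControl values lay close together and above all those of KPC-shBrca2. The log2 fold change was -0.53 ± 0.23 (SE, DESeq2 unadjusted p = 0.0193, adjusted p = 0.416). It ranged from -0.58 to -0.48 over the 6 fits that each left out a library. Pole shares exon sequence with the noncoding gene Gm15792 on the opposite strand, and whether counting used strand is not given in the sources used here.

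The accessory delta subunits measured went the same way. Pold2 had 169, 194 and 147 normalized counts in KPC-shBrca2 and 217, 211 and 210 in KPC-shControl (-0.32 ± 0.19, SE). Pold3 had 51.8, 54.8 and 50.5 against 58.6, 60.4 and 77.1 (-0.32 ± 0.29). In neither did the groups overlap, and neither passed (DESeq2 adjusted p = 0.696 and 0.871). Without shControl replicate 3, the highest for Pold3, its log2 fold change was -0.19.

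The other polymerase genes were divided in direction. Prim1, the primase catalytic subunit, had 221, 222 and 217 normalized counts in KPC-shBrca2 and 204, 200 and 188 in KPC-shControl, so it was higher in each KPC-shBrca2 library (0.16 ± 0.18, SE, DESeq2 adjusted p = 0.914). With the GC trend removed this turned to -0.031. Pola2, the regulatory subunit of polymerase alpha, had 225, 239 and 259 against 241, 223 and 242 (0.04 ± 0.18), and Pola1, its catalytic subunit, had a log2 fold change of 0.05. Prim2 had -0.09. Pole2, an accessory epsilon subunit, had 50.4, 60.5 and 69.6 against 69.7, 39.4 and 39.6 (0.29 ± 0.32), with shControl replicate 1 apart from the other two. Pole3 and Pole4, the small epsilon subunits, chosen after their values were seen, had -0.40 ± 0.21 and 0.31 ± 0.21. Pole and Pole3 thus had lower means and Pole2 and Pole4 higher means in KPC-shBrca2, and the difference between subunits was not tested.

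**Figure D3:**
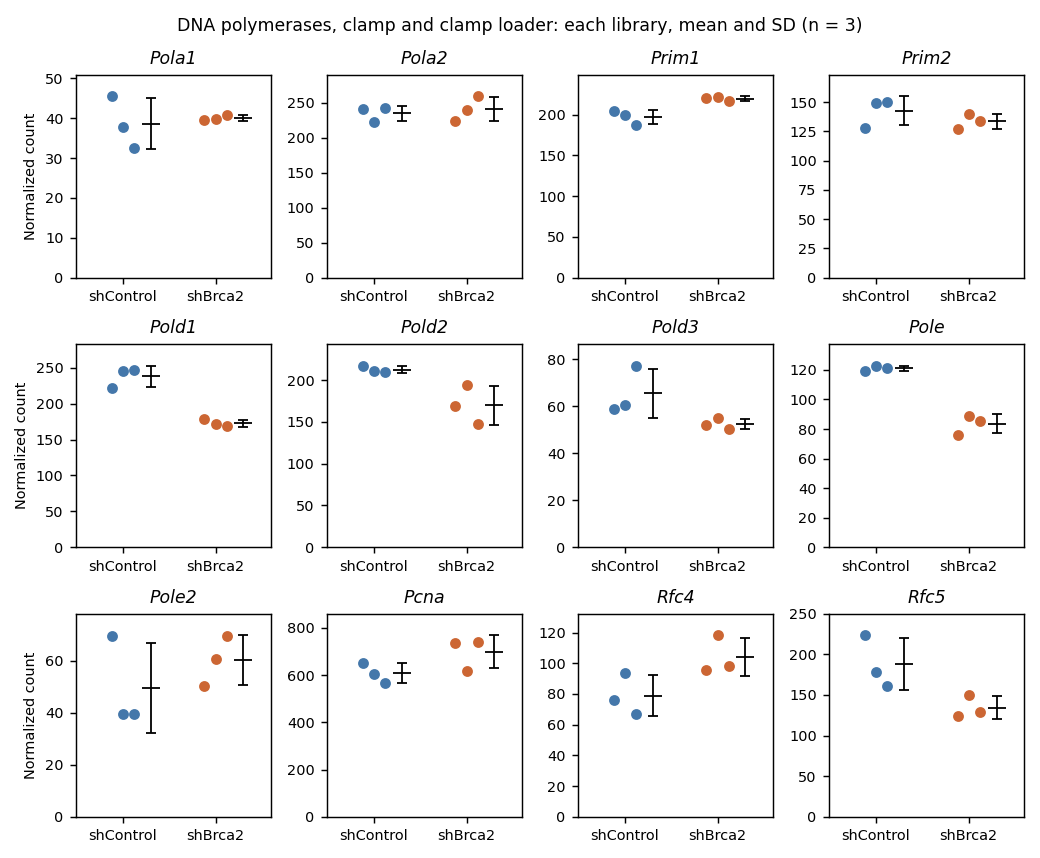
Normalized counts (vertical axis, from 0) of 12 polymerase, clamp and clamp loader genes in each shControl and shBrca2 library, with the mean and SD (n = 3) beside the points. Pold1, Pold2, Pold3, Pole and Rfc5 have every shBrca2 point below every shControl point, Prim1 and Rfc4 have the reverse, and the other 5 genes overlap.

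The sliding clamp and its loader were divided. Pcna, the clamp that tethers polymerases to DNA, had 737, 617 and 741 normalized counts in KPC-shBrca2 and 652, 606 and 566 in KPC-shControl (0.20 ± 0.15, SE, DESeq2 adjusted p = 0.830). The groups overlapped by shBrca2 replicate 2, and Pcna has processed pseudogenes (Pcna-ps1 and Pcna-ps2) with which reads could be shared. Rfc5 (chr5:117379145-117389023), a small subunit of the loader, had 124, 150 and 129 against 223, 179 and 161. Every KPC-shBrca2 library was lower, by -0.48 ± 0.21 (SE, DESeq2 unadjusted p = 0.0238, adjusted p = 0.448). Rfc4, another small subunit, had 95.4, 118 and 98.3 against 75.8, 93.9 and 67.2 (0.40 ± 0.25, adjusted p = 0.724) and was higher in every KPC-shBrca2 library. Rfc5 overlaps exons of Wsb2 and Rfc4 those of Eif4a2 on the opposite strand. This is not particular to them: 31 replication genes, among them Orc6, Mcm7, Rpa1, Chaf1a, Tk1 and Tipin, overlap an opposite-strand exon. Rfc1, the large subunit, Rfc2 and Rfc3 had log2 fold changes of 0.14, -0.17 and -0.21.

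Replication protein A coats single-stranded DNA at the fork. Rpa2 had 210, 198 and 207 normalized counts in KPC-shBrca2 and 269, 251 and 255 in KPC-shControl, with no overlap (-0.33 ± 0.17, SE, DESeq2 adjusted p = 0.592). Rpa1, the large subunit, had 277, 267 and 295 against 326, 317 and 314, again with every KPC-shBrca2 library lower (-0.19 ± 0.16, adjusted p = 0.863). Rpa3 overlapped, with a log2 fold change of -0.08. Fen1, the flap nuclease of Okazaki fragments, and Lig1, the ligase that joins them, had 0.12 and -0.17.

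Among the genes of nucleotide supply, the subunits of ribonucleotide reductase varied widely between libraries. Rrm1, the large subunit, had 338, 382 and 265 normalized counts in KPC-shBrca2 and 322, 472 and 458 in KPC-shControl (-0.35 ± 0.20, SE, DESeq2 adjusted p = 0.665). The value moved to -0.21 without shBrca2 replicate 3, the lowest, and to -0.55 with the GC trend removed. Rrm2, the small subunit, singled out after its values were seen, had 373, 382 and 413 against 469, 382 and 172. Its shControl replicate 3 lay far below the other 5 libraries, and without it the log2 fold change was -0.13 in place of 0.19. Tyms, thymidylate synthase, had the lowest fold change of the 56 genes but few counts, 16.4, 9.45 and 13.9 against 30.3, 17.6 and 16.8 (-0.72 ± 0.51, adjusted p = 0.790). Its groups nearly touched (16.4 and 16.8), it has a processed pseudogene (Tyms-ps), and without shControl replicate 1 its log2 fold change was -0.39. Tk1, thymidine kinase, had 387, 415 and 383 against 386, 394 and 435 (-0.04 ± 0.16), and Dut had -0.07.

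Chromatin assembly and maintenance had the lowest role median, -0.43 over 3 genes. Uhrf1 (chr17:56303337-56323486), which reads hemi-methylated DNA behind the fork and recruits Dnmt1, had 118, 139 and 103 normalized counts in KPC-shBrca2 and 144, 152 and 202 in KPC-shControl. All KPC-shBrca2 values were below all KPC-shControl values (-0.46 ± 0.23, SE, DESeq2 unadjusted p = 0.0399, adjusted p = 0.542), and without shControl replicate 3 the log2 fold change was -0.30. Chaf1a, the large subunit of the histone chaperone CAF-1, had 123, 139 and 151 against 137, 210 and 211 (-0.43 ± 0.22, adjusted p = 0.584). It overlapped by shControl replicate 1, which lay among the KPC-shBrca2 values. Chaf1b, the middle subunit, had -0.10. With the GC trend removed the log2 fold change was -0.37 for Uhrf1 (DESeq2 unadjusted p = 0.0898) and -0.36 for Chaf1a.

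The E2F and cyclin E genes, which drive entry into S phase, showed no common direction. E2f1 had 98.1, 69.0 and 84.4 normalized counts in KPC-shBrca2 and 73.8, 93.9 and 80.1 in KPC-shControl, a log2 fold change of 0.01 ± 0.26 (SE). E2f3 (chr13:29906575-29986064) had the highest fold change of the 56 genes, with 58.6, 49.2 and 71.4 against 25.3, 50.3 and 43.5 (0.58 ± 0.33, DESeq2 adjusted p = 0.665). It overlapped by shBrca2 replicate 2, and without shControl replicate 1 its log2 fold change was 0.35. Ccne1, Cdk2 and the little-counted Ccne2 had -0.14, 0.05 and -1.30, the last with a 95% interval from -3.62 to 1.02 and a value of -0.12 without shControl replicate 1. Of the fork protection pair, Timeless had 59.9, 55.8 and 53.95 against 66.7, 66.3 and 74.2 with no overlap (-0.29 ± 0.27, adjusted p = 0.879), and its partner Tipin had 146, 200 and 150 against 133, 140 and 157 (0.20 ± 0.21). Without shBrca2 replicate 2, the highest, Tipin had a log2 fold change of 0.04.

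**Figure D4:**
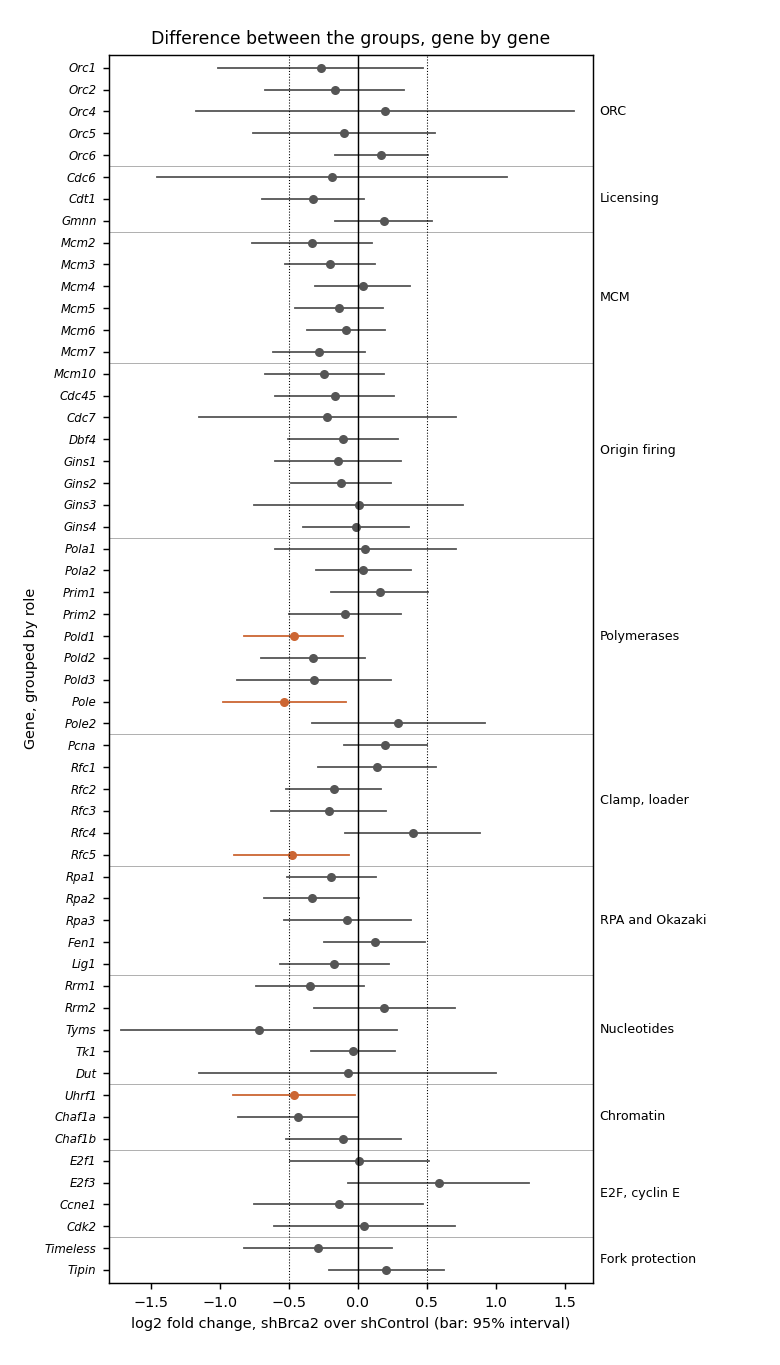
Log2 fold change of shBrca2 over shControl (horizontal axis, points) with 95% intervals (bars) for the 56 genes with an adjusted p, grouped by role, with dotted lines at a change of 0.5 either way. The 4 coloured genes, Pold1, Pole, Rfc5 and Uhrf1, have an unadjusted p under 0.05, and 0 genes have an adjusted p under 0.1.

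**Figure D5:**
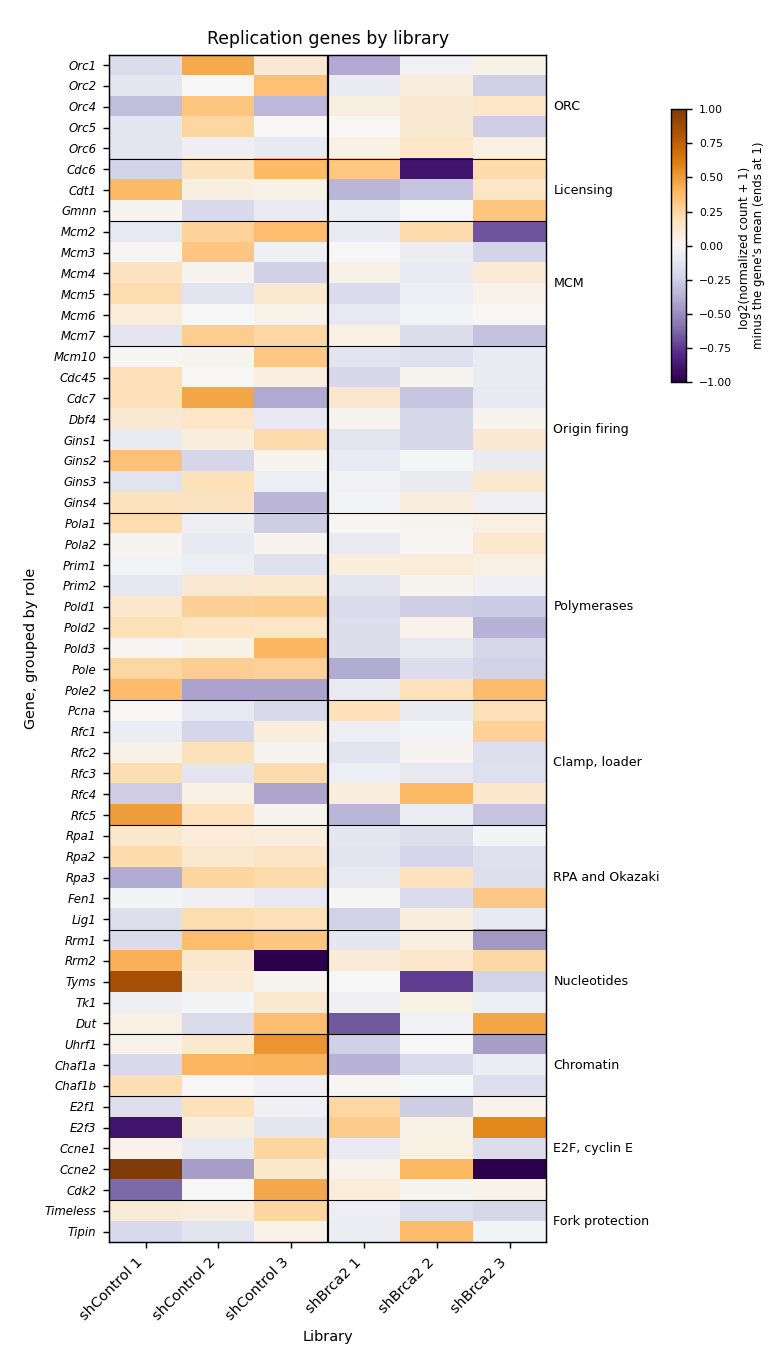
Heat map of log2(normalized count + 1) minus the gene's mean over the 6 libraries, for 57 genes (rows, by role) in each library (columns). Rrm2 in shControl 3 and Mcm2 in shBrca2 3 stand out among genes with many counts, and Ccne2, Cdc6, Tyms and E2f3, with fewer counts, also have cells far from their mean.

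A wider list of 71 genes of the pathway, with 68 in the table and 66 tested, showed a similar lean. Of these, 43 were lower (65.2%) with a median log2 fold change of -0.13. By DESeq2 1 was called lower and 0 were called higher, beside 1.27% of all genes called. The edgeR quasi-likelihood test called 0, beside 121 of 9091 genes overall. At an unadjusted p under 0.05 there were 4 lower and 1 higher by DESeq2 (4.11% and 4.55% of all genes) and 8 lower and 1 higher by edgeR (7.13% and 7.31% of all genes). The groups did not overlap for 15 genes lower in KPC-shBrca2 (22.7%) and for 1 gene higher (1.52%), beside 10.4% and 10.2% of all genes. The called gene was Chtf18 (chr17:25719030-25727434), the large subunit of an alternative clamp loader that acts in sister chromatid cohesion. It had 68.1, 57.7 and 39.2 normalized counts in KPC-shBrca2 and 111, 104 and 89.0 in KPC-shControl, all lower in KPC-shBrca2 (-0.90 ± 0.28, SE, DESeq2 adjusted p = 0.0909). The call was lost by edgeR (adjusted p = 0.108), with the GC trend removed (0.201) and in 5 of 6 fits that left out a library, all but that without shBrca2 replicate 1. Chtf18 overlaps exons of Gng13 and Rpusd1 on the opposite strand.

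Of the other genes of that list with the lowest p-values, Ssrp1, a subunit of the histone chaperone FACT, had 379, 416 and 420 normalized counts in KPC-shBrca2 and 490, 543 and 636 in KPC-shControl (-0.46 ± 0.16, SE, DESeq2 adjusted p = 0.225). Every KPC-shBrca2 library was lower. Cdkn1b, which encodes the cyclin-dependent kinase inhibitor p27, was the 1 gene higher without overlap, with 28.6, 28.4 and 28.7 against 8.08, 13.4 and 14.8 (1.23 ± 0.47, adjusted p = 0.282). Its counts were low, and it has an opposite-strand noncoding neighbour, Gm44238. By function, the nucleotide metabolism genes had 10 of 11 lower with a median of -0.24, the regulators around E2F and the pocket proteins 13 of 18 with -0.21, chromatin replication 6 of 10 with -0.04, the replication checkpoint 5 of 8 with -0.05 and the helicase and replisome partners 9 of 19 with 0.004. Pold4, Asf1a and Supt16h were not analysed here.

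Genes of G2 and mitosis, the other proliferation genes compared, had a median of the same sign. Of 20 tested, 16 were lower, beside 50.2% of all genes, with a median log2 fold change of -0.16. By DESeq2 and by edgeR 0 were called, beside 127 of 9997 and 121 of 9091 genes overall. At an unadjusted p under 0.05 there were 0 lower and 1 higher by DESeq2 (4.11% and 4.55% of all genes) and 3 lower and 1 higher by edgeR (7.13% and 7.31% of all genes). The groups did not overlap for 2 genes lower in KPC-shBrca2 (10%) and 0 genes higher, near the 10.4% of all genes for lower and below the 10.2% for higher. Aurka, a mitotic kinase and 1 of these 2, had 345, 347 and 329 normalized counts in KPC-shBrca2 and 381, 439 and 444 in KPC-shControl (-0.31 ± 0.16, SE, DESeq2 adjusted p = 0.588). Bub1, a spindle checkpoint kinase, was the gene higher, with 53.1, 22.7 and 47.0 against 26.3, 22.6 and 8.90 (1.07 ± 0.45, adjusted p = 0.402), and its groups overlapped. The difference in fold change between replication and mitosis genes was not tested.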

How the data were processed

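RNA of sorted KPC cells was captured on oligo(dT) beads and made into 3′ end libraries by a form of MARS-seq. The values deposited are raw counts by gene symbol, with a column for each library, and the authors neither normalized nor pooled them. The submitters' processing notes name bcl2fastq, cutadapt, STAR 2.4.2a, HTSeq, DESeq2 and the build mm10. The annotation, the use of strand and of molecular identifiers, and thus whether a count is 1 molecule, are not given in the sources used here, and errors from counts alone cover counting error only. Levels were not compared between genes.

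Groups came from the labels, which give no batch and no replicate numbers shared by the groups. All 10616 genes were fitted with DESeq2 1.42.0 in R 4.3.3 (likelihood ratio test of a model with group against one without it, median-of-ratios size factors, unshrunken fold changes), as in the study's methods, with Benjamini-Hochberg adjustment over all genes. Normalized counts are counts divided by these size factors, and 95% intervals are normal intervals from the SE. Alternatives were edgeR 4.0.16, the DESeq2 Wald test, TMM factors, total counts, a minimum of 10 counts in 3 libraries, an adjusted p under 0.05, no fold minimum, each library left out and, added after seeing the data, removal of the GC trend (loess, span 0.5). The fits were also run on simulated counts, with fold changes larger than those of the replication genes tested. That run thus says nothing about detecting changes of the size seen here.

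The genes and lists were chosen with earlier results of these data known. Genes named are those called, those whose groups did not overlap, and in each role the 2 with the lowest p and the 1 with the highest base mean, with the called genes and the 3 lowest p of the wider list and the 2 lowest p of mitosis. Other genes of a role are given by fold change. Exon overlaps and GC content were taken from the GENCODE vM39 annotation of GRCm39 (31 replication genes overlap an opposite-strand exon), and promoters and positions from RefSeq on GRCm38.p6, the same assembly as mm10.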

Additional observations from a re-analysis of the deposited data

How the results depend on the processing

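The replication genes called were 0 under every alternative run, and the genes lower in KPC-shBrca2 ranged from 34 of 56 (shControl replicate 2 left out) to 43 of 56 (GC trend removed). Their median log2 fold change was -0.18 with the GC trend removed and from -0.16 to -0.11 over the 6 fits that each dropped a library. Over those fits the summed counts changed by -7.74% to -6.62%. The genes called over all genes were 47 to 140 there, with 47 when shBrca2 replicate 3 was left out, 55 for shControl replicate 2 and 81 for shBrca2 replicate 1. Calls in the wider replication list were 0 to 1 and among mitosis genes 0 to 1, and the wider list had 0 by edgeR, with the GC trend removed and at an adjusted p under 0.05. For Brca2 the log2 fold change was between -1.70 and -1.46 in these fits, with the calls lost as given. Dropping a library turned the direction of Gins2 (-0.25 to 0.033, without shControl replicate 1), Pola2 (-0.0165 to 0.083, without shBrca2 replicate 3), Tk1 (-0.075 to 0.016, without shControl replicate 3) and E2f1 (-0.11 to 0.13, below 0 without shBrca2 replicate 1 and without shControl replicate 1 or 3). Removing the GC trend turned Prim1 (-0.031), Tk1 (0.0099) and Tipin (-0.052). Rrm2 turned to -0.13 without shControl replicate 3. Of the values under the alternatives of the genes named by rule, Brca2 aside, 449 stayed on their side in direction and call, 8, all of Chtf18, lost the call, and 9 turned direction. The causes were not tested. With no adjusted p from DESeq2, as for Brca2 and Cdkn1b with TMM factors, no comparison was made. A group left with 2 libraries is assumed to vary like the other. No paired analysis was possible because the groups share no replicate numbers in the labels. Depth limits genes with few counts, such as Cdc6, Tyms, Dut and Ccne2.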
